A study of Mus musculus with 17 samples.

Results

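The 40 genes described here were Myc and 39 genes of ribosome biogenesis, the assembly of ribosomes in the nucleolus. They were taken from a written list of gene symbols, and 40 of 40 were found among the 35674 symbols of each of the 3 deposited expression tables. The list held 5 nucleolar RNA-binding and scaffold proteins, 3 core proteins of the box C/D particle, 3 of the box H/ACA particle, 12 small subunit assembly factors, 13 large subunit assembly factors and 3 subunits of RNA polymerase I. MYC is a transcription factor that pairs with MAX, binds E-box sequences and is known for raising the expression of ribosome biogenesis genes in growing cells. RNA polymerase I makes the long precursor of ribosomal RNA, small nucleolar particles direct its chemical modification, and assembly factors fold and cleave it into the small and the large ribosomal subunit. Hair follicle stem cells (HFSCs) rest in the bulge of the follicle for much of the hair cycle, a state known for low rates of protein synthesis, while epidermal stem cells (EpiSCs) renew the epidermis between follicles.

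From skin of wild-type mice, stem cells had been isolated by flow cytometry, and messenger RNA had been sequenced in 17 libraries. The short experiment held EpiSCs of mice fed ad libitum (2 libraries) and HFSCs of mice that had been fed ad libitum (3 libraries), had fasted for 24 h (3 libraries) or had fasted for 48 h (3 libraries). HFSCs also came from mice on alternate-day fasting for 6 months, taken on the day after a fast (2 libraries), from mice fed ad libitum for the same 6 months (2 libraries), and from follicles in the 2nd telogen, a resting phase (2 libraries, labelled as control). Mouse ages, the markers used in the sort and the hair cycle stage of the ad libitum HFSCs were not given in the sources used here, and no EpiSCs of fasted mice are used here. Whether the libraries of a group came from separate mice is not stated in the labels, and p-values therefore measure a spread between libraries that may be technical.

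Values were transcript abundances (TPM), which account for transcript length and sum to the same total in every library. The 13 symbols of the mitochondrial genome, all starting with mt-, took 2.84% to 4.10% of the TPM in the EpiSC, long-term and telogen libraries. In the HFSCs of the short experiment they took 25.4% to 33.9% in mice fed ad libitum, 18.8% to 36.3% after 24 h and 7.26% to 13.0% after 48 h of fasting. Each comparison is therefore also given after rescaling the values without these symbols (rescaled TPM). Library 2 of the 24 h group stood apart, with the highest mitochondrial share and 33 of the 40 genes at 1 TPM or more. The 8 HFSC markers were detected in every HFSC group, and in EpiSCs Cd34, Lgr5, Lhx2 and Tcf7l1 were under 1 TPM in both libraries. Of the other 4, Sox9 averaged 9.33 TPM in EpiSCs and 128 TPM in ad libitum HFSCs, and Nfatc1 averaged 16.5 TPM in EpiSCs and 57.0 TPM in ad libitum HFSCs. Krt15 averaged 34153 TPM in EpiSCs and 38033 TPM in ad libitum HFSCs, and the integrin Itga6 averaged 326 TPM in EpiSCs and 27.6 TPM in ad libitum HFSCs. Markers of interfollicular epidermis summed to 16200 and 16535 TPM in EpiSCs, against 906 to 5481 TPM in HFSC libraries. Ly6d (mean 8678 TPM) and Krtdap (mean 4561 TPM) made up most of the EpiSC sums. Of the 8 markers, Sbsn alone had a lower mean in EpiSCs (121 TPM) than in ad libitum HFSCs (323 TPM). Plet1 averaged 183 TPM in EpiSCs and 34.8 TPM in ad libitum HFSCs. It averaged 256 TPM in telogen, 449 TPM in alternate-day fasted and 319 TPM in long-term fed HFSCs.

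Promoters from RefSeq (build GRCm38.p6) covered 250 bases before and 50 bases after a gene's start, and 34 of the 40 genes matched an entry. Entries were absent from the table for Myc, Npm1, Fbl, Bop1, Rrp12 and Rrs1. The canonical E-box CACGTG, which reads the same on both strands, was found in 8 of the 34 promoters (23.5%), those of Nop2, Pes1, Wdr43, Utp4, Utp20, Mybbp1a, Ltv1 and Tsr1. Counted in the same way, by gene and with any listed start of a gene taken, it was found in 2187 of all 27025 genes in the table (8.09%) and in 1071 of 8837 genes tested in the fasting experiment (12.1%). The promoters of 4 genes that differed between groups are shown, 2 with the motif and 2 without it, 5′ to 3′ on the gene's strand, with the E-box in capitals. Utp4 lies on the plus strand at chr8:106893390-106893689, Wdr43 on the plus strand at chr17:71615965-71616264, Gnl3 on the minus strand at chr14:31019082-31019381 and Nhp2 on the plus strand at chr11:51619523-51619822.
Utp4: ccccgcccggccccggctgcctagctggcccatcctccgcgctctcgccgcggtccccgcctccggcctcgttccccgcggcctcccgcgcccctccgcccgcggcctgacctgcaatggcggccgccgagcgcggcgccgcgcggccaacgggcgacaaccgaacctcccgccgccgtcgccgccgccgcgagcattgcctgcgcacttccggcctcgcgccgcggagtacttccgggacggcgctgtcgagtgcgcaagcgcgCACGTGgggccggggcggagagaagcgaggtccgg
Wdr43: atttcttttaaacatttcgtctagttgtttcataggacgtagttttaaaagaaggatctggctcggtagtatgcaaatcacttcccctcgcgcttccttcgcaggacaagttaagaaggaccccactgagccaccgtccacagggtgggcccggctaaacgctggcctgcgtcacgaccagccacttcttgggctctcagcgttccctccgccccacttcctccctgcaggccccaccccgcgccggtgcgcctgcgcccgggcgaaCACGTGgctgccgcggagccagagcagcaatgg
Gnl3: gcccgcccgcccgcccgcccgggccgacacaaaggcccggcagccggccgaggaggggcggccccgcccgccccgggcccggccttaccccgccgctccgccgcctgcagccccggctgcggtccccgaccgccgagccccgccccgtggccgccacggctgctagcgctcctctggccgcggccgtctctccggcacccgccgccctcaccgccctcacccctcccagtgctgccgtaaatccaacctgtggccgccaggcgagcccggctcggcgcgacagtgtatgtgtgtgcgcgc
Nhp2: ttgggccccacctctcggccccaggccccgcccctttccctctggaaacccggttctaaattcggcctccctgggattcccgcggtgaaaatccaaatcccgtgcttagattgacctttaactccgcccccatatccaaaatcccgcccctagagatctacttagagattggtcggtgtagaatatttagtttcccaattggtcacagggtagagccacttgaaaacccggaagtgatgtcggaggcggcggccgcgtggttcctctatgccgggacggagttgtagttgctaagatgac
The motif lay 15 bases after the RefSeq start in Utp4 and 17 bases after it in Wdr43. For Wdr43 this start lies 320 bases downstream of the start in the GENCODE annotation, so the window shown falls inside the gene as GENCODE places it. A match describes letters in this window and is not a binding site. The median log2 difference between 48 h fasted and ad libitum HFSCs was 0.51 over the 8 genes with the motif and 0.50 over the 25 tested genes without it. Between EpiSCs and HFSCs these medians were 1.24 over the 8 genes with it and 1.23 over the 26 genes without it. They were -0.50 with the motif and -0.21 without it between 24 h fasted and ad libitum HFSCs, 0.76 and 0.64 between 48 h and 24 h, -0.28 and -0.18 in the long-term comparison, and -0.01 and 0.48 between telogen and ad libitum HFSCs. These differences between genes with and without the motif were not tested.

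Expression levels spanned a wide range among the 40 genes. Averaged over the 17 libraries, 6 genes were at 100 TPM or more, 26 between 10 and 100 TPM and 8 under 10 TPM. The most abundant were Myc (327 TPM), the nucleolar chaperone Npm1 (294.5 TPM), the box C/D core proteins Nop56 (161 TPM) and Nop58 (144 TPM), the large subunit factor Ebna1bp2 (131 TPM) and the nucleolar scaffold Ncl (108 TPM). The least abundant were the large subunit factor Noc3l (1.49 TPM) and the small subunit factor Utp20 (2.56 TPM). On deposited TPM the groups did not share 1 order of levels. The lowest mean was in ad libitum HFSCs of the short experiment for 13 genes and in 24 h fasted HFSCs for 25. The highest mean was in EpiSCs for 18 genes and in long-term fed HFSCs for 17. It was in 48 h fasted HFSCs for Npm1, Nop14, Rrp1b and Polr1c, and in alternate-day fasted HFSCs for Polr1a. The mt- symbols averaged 30.7% of TPM in ad libitum and 27.5% in 24 h fasted HFSCs, and the counts above hold for deposited TPM only. After rescaling the lowest mean was in telogen HFSCs for Nop14, Rrp1b, Ddx18, Mybbp1a, Noc2l and Npm1, among others. For Npm1 it was 255 in telogen and 293 in ad libitum HFSCs. Other orders changed as well. The rescaled fitted mean of Npm1 was lower at 48 h than at 24 h (log2 difference -0.05). That of Ebna1bp2 was lower at 48 h than in ad libitum HFSCs (log2 difference -0.05). Levels of the long-term libraries come from a table made separately, so their place in these orders was not tested.

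The summed level of the 39 ribosome biogenesis genes was 2376 and 2516 TPM in EpiSCs. In the short-experiment HFSCs it lay between 927 and 1276 TPM in mice fed ad libitum, between 820 and 1359 TPM after 24 h and between 1533 and 1700 TPM after 48 h of fasting. It was 2199 and 2325 TPM in HFSCs after alternate-day fasting and 2771 and 3020 TPM in HFSCs of mice fed ad libitum for 6 months. The telogen libraries held 1518 and 1793 TPM. The 48 h libraries were above all 24 h and all ad libitum libraries. Abundant genes weigh most in these sums, such as Nop56 and Nop58. Their means were 240 and 203 TPM after alternate-day fasting and 406 and 380 TPM in long-term fed HFSCs. The median level over the 40 genes was 37.2 and 38.7 TPM in the alternate-day fasted libraries and 39.3 and 39.9 TPM in the long-term fed libraries. After rescaling the sums ran from 1377 to 1852 in ad libitum HFSCs, from 1287 to 1674 after 24 h and from 1762 to 1833 after 48 h. The 48 h and ad libitum ranges then overlapped. The rescaled telogen sums were 1572 and 1858, and this range also overlapped that of ad libitum HFSCs. The rescaled sums of EpiSCs (2446 and 2610) and of the long-term libraries (2289 to 3134) stayed above the ad libitum range. The spread between libraries differed by group, with a median coefficient of variation of 6.24% in EpiSCs (40 genes). It was 29.9% in ad libitum HFSCs (39 genes), 35.6% in 24 h fasted HFSCs (37 genes) and 16.5% in 48 h fasted HFSCs (40 genes), counting the listed genes with a mean of at least 1 TPM in the group.

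**Figure D1:**
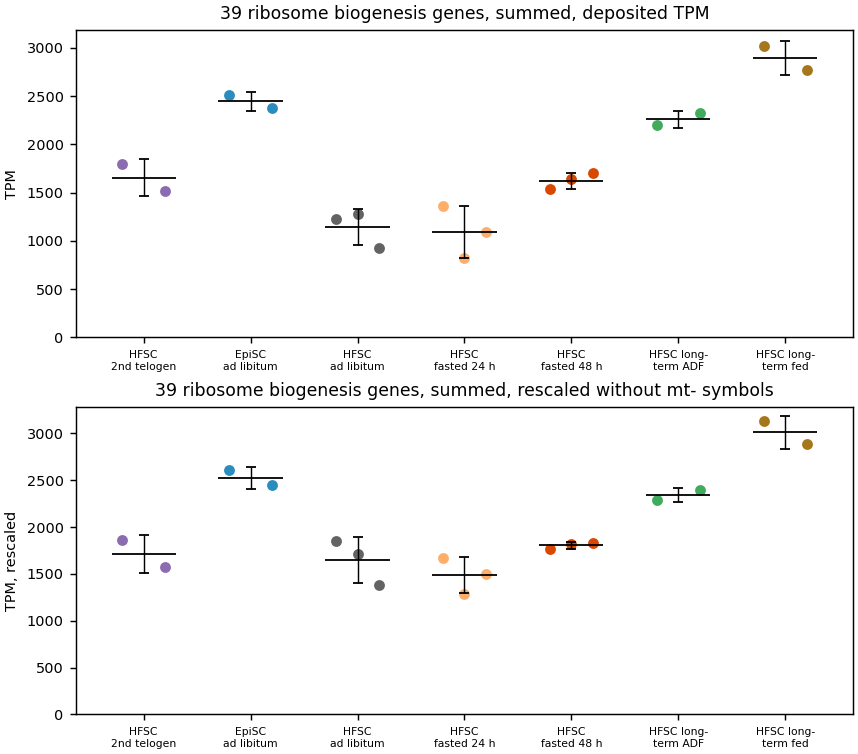
Summed TPM of the 39 ribosome biogenesis genes without Myc in each library, as deposited and after rescaling without mt- symbols, by group, with dots for libraries, bars for means and error bars for SD. The 48 h fasted libraries (1533 to 1700 TPM) sit above the ad libitum libraries (927 to 1276 TPM) in the deposited values and overlap them after rescaling.

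Myc is the transcription factor of the list, and its level was lowest in the HFSCs of the short experiment. There it stood at 43.2, 74.2 and 41.3 TPM in mice fed ad libitum, at 48.5, 69.4 and 131 TPM after 24 h of fasting and at 144, 144 and 207 TPM after 48 h. The 24 h and ad libitum ranges overlapped, and on deposited TPM each 48 h library was above each of the other HFSC libraries of the short experiment. On rescaled TPM the Myc values at 48 h (166, 159 and 224) overlapped those at 24 h (59.8, 109 and 180). Myc stood at 573 and 698 TPM in EpiSCs, at 633 and 493 TPM in alternate-day fasted HFSCs, at 654 and 577 TPM in long-term fed HFSCs and at 665 and 368 TPM in telogen HFSCs. These last 4 groups overlapped one another, and all of their libraries were above the 48 h libraries.

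Genes that are switched on within minutes of a stimulus or of cell dissociation, a class to which Myc itself belongs, were likewise lowest in ad libitum HFSCs of the short experiment. The summed level of 10 such immediate early genes, Myc not counted, ran from 9981 to 13690 TPM in ad libitum HFSCs, from 18173 to 29018 TPM after 24 h and from 27575 to 37095 TPM after 48 h of fasting. It ran from 37690 to 45446 TPM in EpiSCs, from 36000.1 to 43660.3 TPM in alternate-day fasted HFSCs, from 28847 to 42426 TPM in long-term fed HFSCs and from 26026 to 29947 TPM in telogen HFSCs. In the 48 h comparison 9 of the 10 were called higher (7 after rescaling), in the 24 h comparison Atf3, Dusp1 and Btg2 were, in the EpiSC comparison 10 of 10 were (9 after rescaling), and in the telogen comparison 7 were (3 after rescaling). Of all tested genes 13.3%, 1.47%, 31.5% and 5.01% were called higher in these comparisons, in the same order. After rescaling these shares were 5.93%, 1.97%, 16.4% and 2.73%. The part of the immediate early genes in the level of Myc was not tested.

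**Figure D2:**
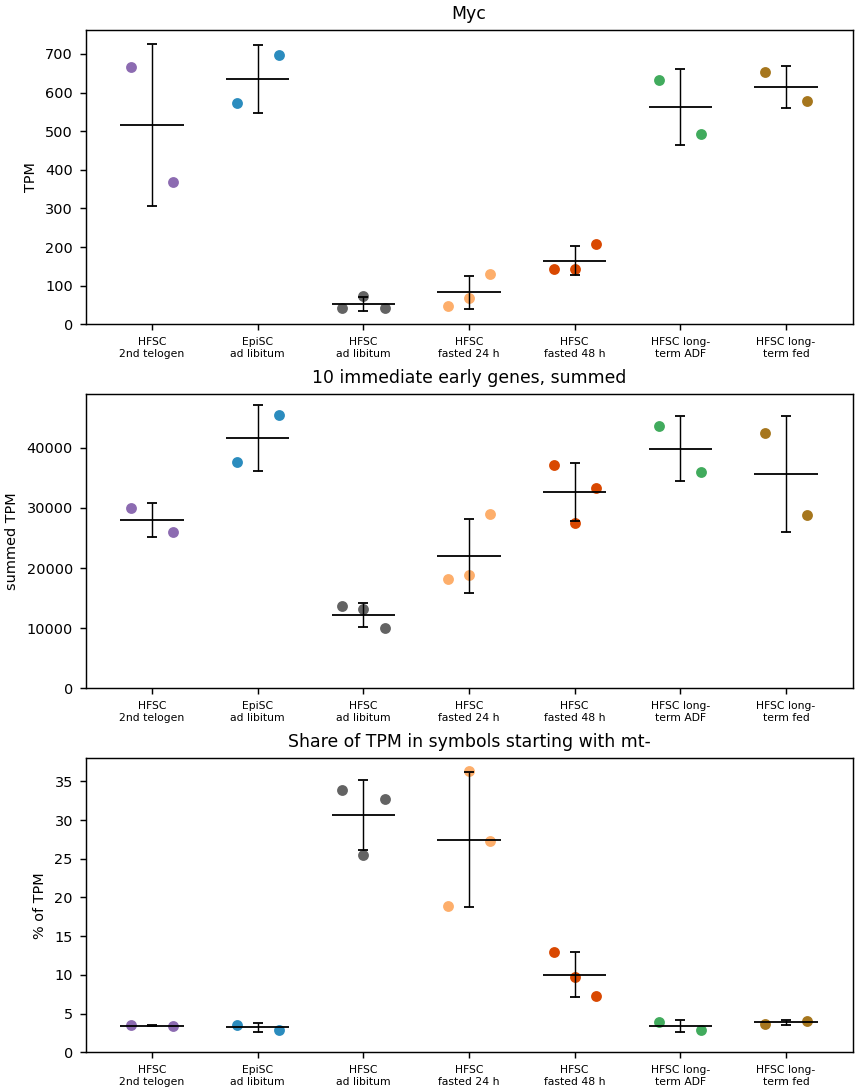
Myc TPM, summed TPM of 10 immediate early genes and the mitochondrial share of TPM (%) in each library by group, with dots for libraries, bars for means and error bars for SD. Myc lies between 144 and 207 TPM after 48 h of fasting and between 41.3 and 74.2 TPM in ad libitum HFSCs, and the groups with still higher Myc have mitochondrial shares of 2.84% to 4.10%.

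The first comparison asked how 24 h without food changed these genes in HFSCs, and 1 of the 39 tested genes passed the test, in the downward direction. Bop1, a scaffold of the PeBoW complex of large subunit assembly, had 8.90, 8.96 and 15.9 TPM in 24 h fasted HFSCs, against 36.0, 31.1 and 27.5 TPM in ad libitum HFSCs. Every fasted library was below every ad libitum library. Bop1 fell by 1.45 on the log2 scale (SE 0.325; limma adjusted p = 0.0259), and by 1.53 after rescaling (adjusted p = 0.0131). The share of all tested genes called lower was 1.6%, against 1 of 39 here, and 1.47% were called higher, against 0 of 39. At an unadjusted limma p under 0.05, 1 listed gene was higher and 6 were lower, where 1972 of all 11533 tested genes differed. In bulk libraries a lower level in each cell and fewer cells with the transcript cannot be told apart. The Bop1 call was lost without any 1 of the 3 ad libitum libraries (adjusted p 0.123, 0.0626 and 0.0633 without libraries 1, 2 and 3).

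Nhp2, a core protein of the box H/ACA particle that guides pseudouridylation, had 45.6, 51.3 and 28.5 TPM in 24 h fasted HFSCs and 100.1, 73.4 and 69.4 TPM in ad libitum HFSCs. The groups did not overlap, and the log2 difference of -0.96 (SE 0.271) missed the threshold on deposited TPM (limma adjusted p = 0.0719). On rescaled TPM Nhp2 fell by 1.03 (limma adjusted p = 0.0440), so that 2 of 40 listed genes were called lower and 0 higher, where 2.8% of all genes were called lower and 1.97% higher. The rescaled Nhp2 call was lost in 8 of the 9 fits that left out 1 library. Myc had a log2 difference of 0.57 (SE 0.338; limma adjusted p = 0.42). The median log2 difference was -0.29 over the listed genes and -0.02 over all tested genes, and 12 of 39 listed genes were above -0.02. The groups did not overlap in 1 listed gene that was higher and 5 that were lower, where 7.77% of all tested genes were higher and 10.1% lower without overlap. After rescaling these counts were 2 higher and 5 lower, against 8.31% and 13.1% of all tested genes. By role the medians were -0.59 for the box H/ACA particle, -0.39 for the box C/D particle, -0.37 for RNA polymerase I, -0.33 for large subunit factors, -0.30 for small subunit factors and -0.11 for the nucleolar scaffold proteins. Utp4, a small subunit processome protein, went the other way with 22.7, 17.8 and 23.3 TPM in 24 h fasted HFSCs and 17.0, 11.2 and 10.8 TPM in ad libitum HFSCs, and its difference of 0.68 did not pass the adjusted test.

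After 48 h of fasting 5 of the 39 tested genes were higher than in ad libitum HFSCs and 0 were lower. On deposited TPM 13.3% of all tested genes were called higher and 1.98% lower. The share among the listed genes (5 of 39) was therefore close to the background. At an unadjusted limma p under 0.05, 8 listed genes were higher and 0 lower, where 3587 of all 11533 tested genes differed in either direction. After rescaling 5 of 40 were higher and 3 lower at that threshold, where 2976 of 11896 differed in either direction. The fitted mean was higher at 48 h for 32 of 39 listed genes and 73.7% of all tested genes. After rescaling it was higher for 28 of 40 listed genes and 55.4% of all tested genes. The 5 genes called on deposited TPM were Myc, the small subunit factors Utp4 and Wdr43, the large subunit GTPase Gnl3 (nucleostemin) and Npm1. Both fasting comparisons used the same 3 ad libitum libraries.

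Myc averaged 165 ± 36.7 TPM in 48 h fasted HFSCs and 52.9 ± 18.5 TPM in ad libitum HFSCs (SD, n = 3 each), a ratio of means of 3.12. It rose by 1.65 on the log2 scale (SE 0.338; limma adjusted p = 0.00483), and this call held in each of 9 fits that left out 1 library (adjusted p 0.00179 to 0.0301). On rescaled TPM Myc had 166, 159 and 224 in 48 h fasted HFSCs and 65.3, 99.5 and 61.3 in ad libitum HFSCs, still without overlap, and it rose by 1.28 (adjusted p = 0.0267). On the rescaled values the call was lost in 5 of 9 fits that left out 1 library (adjusted p 0.00685 to 0.113).

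Utp4 had 34.9, 34.5 and 24.9 TPM in 48 h fasted HFSCs, against 17.0, 11.2 and 10.8 TPM in ad libitum HFSCs, and rose by 1.22 on the log2 scale (SE 0.314; limma adjusted p = 0.0176). Wdr43, a U3 particle-associated protein of the same processome, had 65.2, 51.8 and 58.5 TPM in 48 h fasted HFSCs, against 30.6, 29.3 and 25.2 TPM in ad libitum HFSCs, and rose by 1.02 (SE 0.268; limma adjusted p = 0.0201). In both genes every fasted library was above every ad libitum library. Gnl3 had 57.4, 62.8 and 67.7 TPM in 48 h fasted HFSCs, against 18.2, 41.6 and 16.6 TPM in ad libitum HFSCs, and rose by 1.38 (SE 0.398; limma adjusted p = 0.0301). Npm1 had 343, 335 and 399.5 TPM in 48 h fasted HFSCs, against 191, 216 and 202 TPM in ad libitum HFSCs, and rose by 0.82 (SE 0.262; limma adjusted p = 0.0468). Neither gene overlapped between the groups, and ad libitum library 2 was the highest of its group for Gnl3.

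After rescaling Myc was the 1 listed gene of 40 called higher and 0 were called lower, against 5.93% of all genes called higher and 4.2% lower. Utp4 then differed by 0.87 (limma adjusted p = 0.0782), Wdr43 by 0.65 (adjusted p = 0.106), Gnl3 by 1.02 (adjusted p = 0.0880) and Npm1 by 0.44 (adjusted p = 0.196). The 4 calls on deposited TPM were also lost without 1 library in 3 (Utp4), 5 (Wdr43), 5 (Gnl3) and 7 (Npm1) of 9 fits. The listed genes had a median log2 difference of 0.50, against 0.42 over all tested genes, and 25 of 39 were above 0.42. After rescaling these medians were 0.17 for the listed genes and 0.09 for all tested genes. The role medians on deposited TPM were 0.73 for RNA polymerase I, 0.58 for large subunit factors, 0.49 for the box C/D particle, 0.45 for small subunit factors, 0.42 for scaffold proteins and -0.27 for the box H/ACA particle.

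The 48 h libraries did not overlap the ad libitum libraries in 20 listed genes that were higher and 2 that were lower, where 35.5% of all tested genes were higher and 7.07% lower without overlap. After rescaling the counts were 6 higher and 3 lower, against 19.7% and 15.0% of all tested genes. The 2 lower genes on deposited TPM were Nhp2, with 60.4, 57.4 and 60.0 TPM in 48 h fasted HFSCs against 100.1, 73.4 and 69.4 TPM in ad libitum HFSCs, and the small subunit factor Tsr1, with 4.77, 5.25 and 5.27 TPM in 48 h fasted HFSCs against 7.92, 10.7 and 6.74 TPM in ad libitum HFSCs. Neither passed the adjusted test. After rescaling Bop1 was also lower without overlap, with 25.9, 30.6 and 37.6 in 48 h fasted HFSCs against 54.5, 41.7 and 40.8 in ad libitum HFSCs. Its rescaled log2 difference of -0.53 was not called (limma adjusted p = 0.307).

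**Figure D3:**
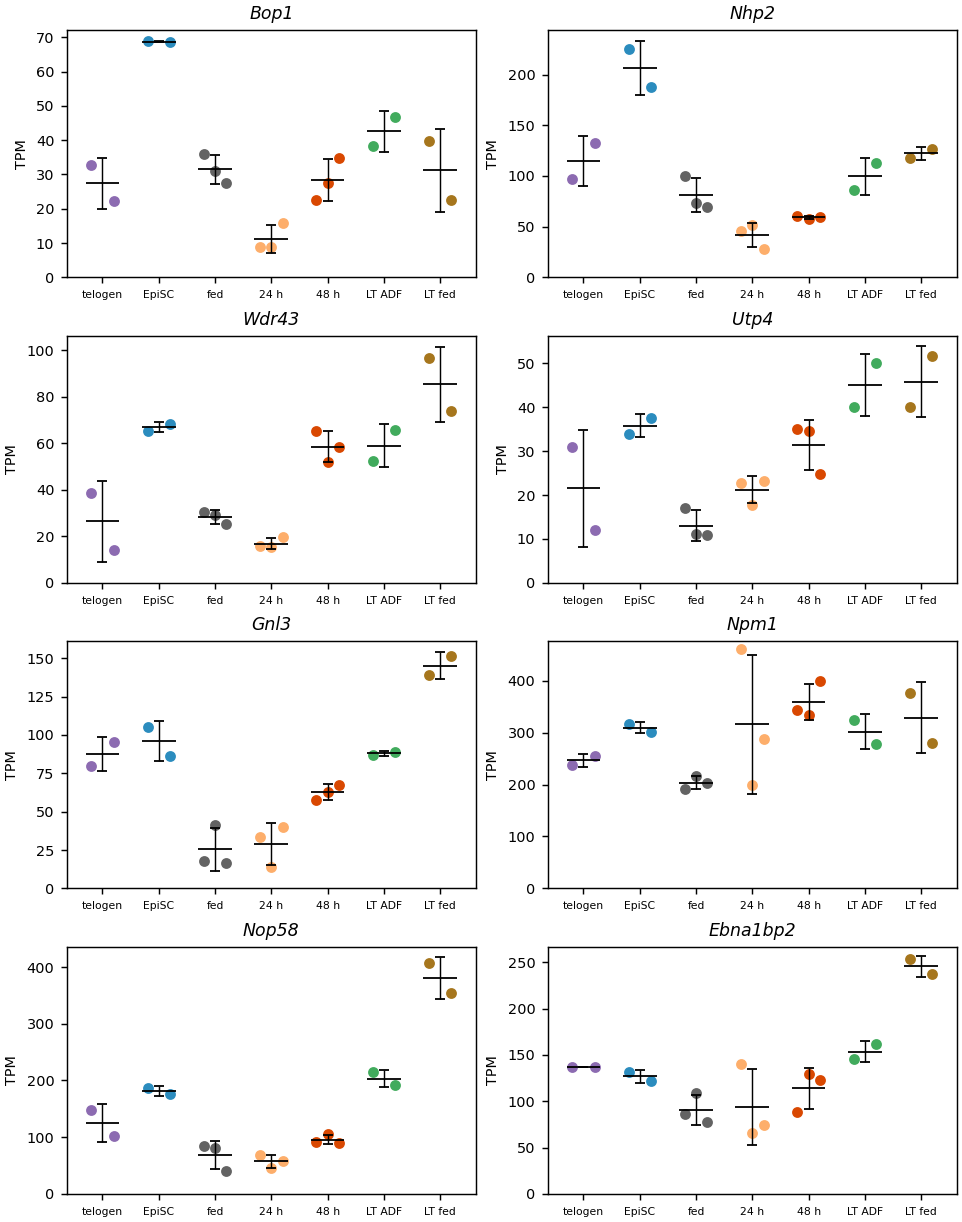
TPM of 8 ribosome biogenesis genes in each library by group, with dots for libraries, bars for means and error bars for SD. Bop1 is lowest in 24 h fasted HFSCs (8.90 to 15.9 TPM) and Wdr43 lies at 51.8 to 65.2 TPM after 48 h, above the 24 h and ad libitum libraries.

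Between the fasting times 1 of the 39 tested genes, Wdr43, passed the test. The fitted mean was higher at 48 h than at 24 h for 39 of 39 listed genes, as it was for 84.3% of all tested genes. After rescaling it was higher for 38 of 40 listed genes, all but Npm1 (-0.05) and Ddx21 (-0.17), and for 67.0% of all tested genes, and with median-ratio scaling for 31 of 38 listed genes and 54.0% of all tested genes. Wdr43 had 65.2, 51.8 and 58.5 TPM after 48 h, against 15.8, 15.3 and 19.7 TPM after 24 h. The lowest 48 h library was above the highest 24 h library. Wdr43 rose by 1.73 on the log2 scale (SE 0.268; limma adjusted p = 0.0388), where 0.026% of all tested genes were called higher and 0.0173% lower. The call was lost after rescaling (1.44; adjusted p = 0.233) and in 7 of 9 fits that left out 1 library (adjusted p 0.0151 to 0.171). The median log2 difference was 0.65 for the listed genes and 0.47 for all tested genes, with 32 of 39 listed genes above 0.47, and after rescaling 0.38 for the listed genes and 0.18 for all tested genes. The groups did not overlap in 22 listed genes that were higher and 0 that were lower, where 25.3% of all tested genes were higher and 1.25% lower without overlap. After rescaling 13 listed genes were higher and 0 lower without overlap, against 11.0% and 3.66% of all tested genes. Myc differed by 1.08 (limma adjusted p = 0.144), and by 0.77 after rescaling (limma adjusted p = 0.541), where its groups overlapped. At an unadjusted limma p under 0.05, 16 of 39 listed genes were higher and 0 lower, where 2461 of all 11533 tested genes differed. After rescaling 9 of 40 were higher and 0 lower at that threshold, where 1071 of 11896 differed. With median-ratio scaling 7 of 38 were higher and 0 lower, where 882 of 11476 differed.

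Of the 6 comparisons, that of EpiSCs with ad libitum HFSCs called the most listed genes, with 29 of 40 higher and 0 lower, where 31.5% of all tested genes were called higher and 9.1% lower. At an unadjusted limma p under 0.05, 31 were higher and 0 lower, where 5940 of all 11774 tested genes differed. After rescaling 17 of the 40 were called higher, all among the 29, where 16.4% of all genes were called higher and 14.2% lower. The ad libitum HFSC libraries are those of the fasting comparisons. The members of both small nucleolar particles made up 6 of the 29 calls, all 3 box C/D and all 3 box H/ACA proteins, and 5 of these were called after rescaling. All 5 scaffold proteins were called on deposited TPM and 1 of them after rescaling. Of the 12 small subunit factors 8 were called, of the 13 large subunit factors 8, and of the 3 polymerase subunits 1, and after rescaling these counts were 5, 5 and 0.

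Myc averaged 636 ± 88.4 TPM in EpiSCs (SD, n = 2) and 52.9 ± 18.5 TPM in ad libitum HFSCs (SD, n = 3), a ratio of means of 12.0. It was higher by 3.61 on the log2 scale (SE 0.266; limma adjusted p = 4.5e-05), and by 3.13 after rescaling (adjusted p = 6.7e-05). Its call held in each fit that left out 1 library (adjusted p 0.000133 to 0.00939), while each of the other 28 calls was lost without at least 1 library.

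Among the box C/D proteins, the ribose methyltransferase Fbl had 137 and 109.7 TPM in EpiSCs and 32.9, 44.1 and 23.5 TPM in ad libitum HFSCs, a log2 difference of 1.88 (SE 0.283; limma adjusted p = 0.00145). Nop56, a core protein of the same particle, had 225 and 204 TPM in EpiSCs and 95.5, 84.8 and 58.0 TPM in ad libitum HFSCs, a difference of 1.45 (SE 0.233; limma adjusted p = 0.00203). For both genes each EpiSC library was above each HFSC library. Of the box H/ACA proteins, Nhp2 had 226 and 188 TPM in EpiSCs and 100.1, 73.4 and 69.4 TPM in ad libitum HFSCs, a difference of 1.35 (SE 0.212; limma adjusted p = 0.00179). Gar1, a second protein of that particle, had 39.8 and 39.9 TPM in EpiSCs and 11.5, 12.2 and 5.04 TPM in ad libitum HFSCs, a difference of 2.03 (SE 0.389; limma adjusted p = 0.00455). Again the groups did not overlap, and ad libitum library 3 held the lowest Gar1 value.

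Nolc1, a chaperone of small nucleolar particles, had 62.9 and 58.4 TPM in EpiSCs and 16.5, 21.3 and 14.3 TPM in ad libitum HFSCs, a log2 difference of 1.76 (SE 0.260; limma adjusted p = 0.00133). The large subunit factor Noc2l had 72.9 and 75.0 TPM in EpiSCs and 24.0, 29.1 and 18.2 TPM in ad libitum HFSCs, a difference of 1.62 (SE 0.256; limma adjusted p = 0.00186). For both, every EpiSC library was above every HFSC library. Wdr43 had 65.3 and 68.3 TPM in EpiSCs, against 30.6, 29.3 and 25.2 TPM in ad libitum HFSCs, a difference of 1.21 (SE 0.217; limma adjusted p = 0.00336). After rescaling these 7 genes kept their calls, with differences of 1.41 for Fbl, 0.97 for Nop56, 0.88 for Nhp2, 1.60 for Gar1, 1.30 for Nolc1, 1.16 for Noc2l and 0.74 for Wdr43.

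The small subunit factor Rrp12 had the largest difference after Myc, 2.99, on low levels of 12.4 and 15.2 TPM in EpiSCs and 0, 2.87 and 0.647 TPM in ad libitum HFSCs. The 11 genes not called were Nop14, Nop16, Wdr12, Wdr75, Utp20, Rrp1b, Ddx18, Ddx10, Ebna1bp2, Polr1a and Polr1c. Polr1c, a subunit shared by RNA polymerases I and III, had 42.2 and 42.4 TPM in EpiSCs and 41.3, 36.9 and 47.1 TPM in ad libitum HFSCs, with the EpiSC values inside the HFSC range. The median log2 difference of the listed genes was 1.27, against 0.50 for all tested genes, and 36 of 40 were above 0.50. After rescaling the medians were 0.83 for the listed genes and 0.06 for all genes, again with 36 of 40 above. The groups did not overlap in 37 listed genes that were higher and 0 that were lower, against 50.5% and 16.2% of all tested genes. After rescaling the counts were 28 higher and 1 lower, against 32.0% and 28.1% of all tested genes. A set of 8 genes of cycling cells, which marks dividing cells, summed to 323 and 361 TPM in EpiSCs and 117 to 153 TPM in ad libitum HFSCs, with 6 of 8 called higher (3 after rescaling), and its part in these differences was not tested. Pcna made up most of the ad libitum sums, with means of 159 TPM in EpiSCs and 103 TPM in ad libitum HFSCs.

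**Figure D4:**
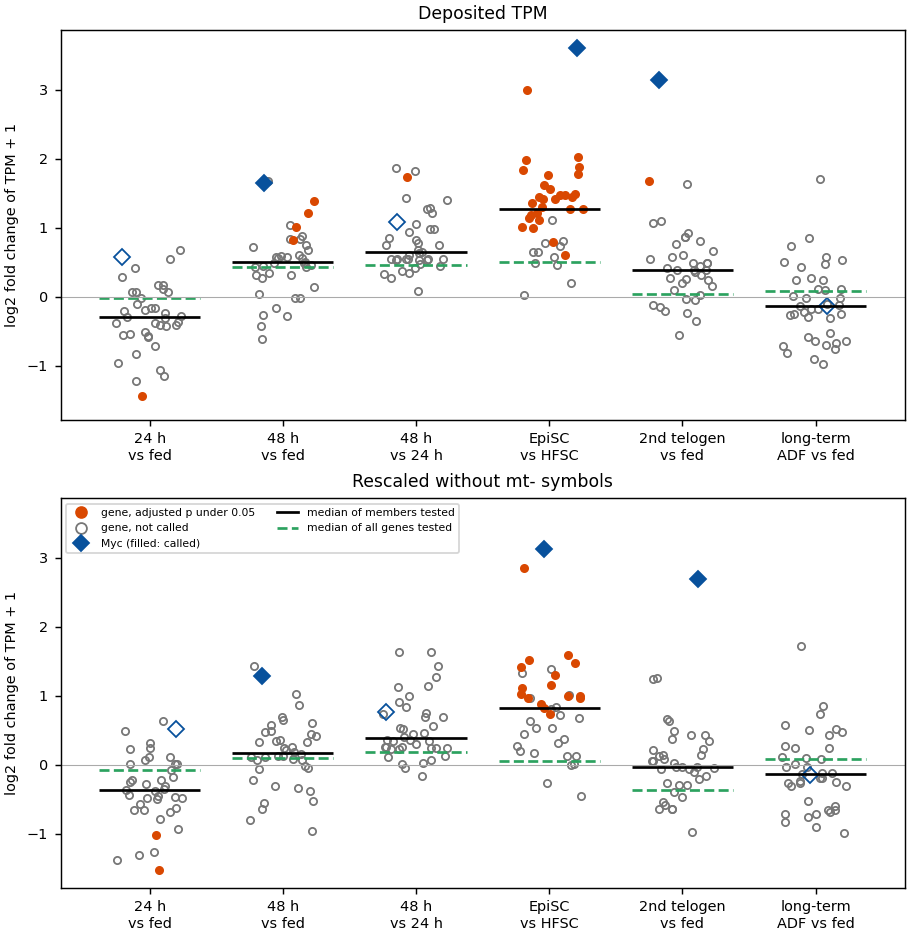
Log2 differences of the 40 genes in the 6 comparisons, for deposited and rescaled TPM, with filled points for genes called at an adjusted p under 0.05, a diamond for Myc, a black line for the median of the listed genes and a green dashed line for the median of all tested genes. The listed genes sit furthest above the all-gene median in the comparison of EpiSCs with HFSCs (medians 1.27 and 0.50).

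The long-term experiment asked whether 6 months of alternate-day fasting changed HFSCs on the day after a fast. The test was passed by 0 of the 40 listed genes. At an unadjusted limma p under 0.05, 1 was higher and 6 were lower, where 1720 of all 12162 tested genes differed. Of all 12162 genes tested 1 was called (0.00822%), and after rescaling 0 of the 40 listed genes and 0.0082% of all genes were. Myc had 633 and 493 TPM after alternate-day fasting and 654 and 577 TPM in long-term fed HFSCs, with overlapping groups and a log2 difference of -0.14 (SE 0.221; limma adjusted p = 0.781). The 95% interval of this difference ran from -0.66 to 0.39.

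The smallest unadjusted p-values belonged to Nop58, Gnl3 and Ebna1bp2. Nop58 had 214 and 192 TPM after alternate-day fasting and 406 and 355 TPM in long-term fed HFSCs, a log2 difference of -0.90 (SE 0.201; limma adjusted p = 0.244). Gnl3 had 87.0 and 89.1 TPM after alternate-day fasting and 139 and 151 TPM in long-term fed HFSCs, a difference of -0.71 (SE 0.202; limma adjusted p = 0.268). Ebna1bp2, a large subunit factor, had 146 and 162 TPM after alternate-day fasting and 253 and 238 TPM in long-term fed HFSCs, a difference of -0.67 (SE 0.197; limma adjusted p = 0.269). In each of these genes both fasted libraries were below both fed libraries. The 1 gene with a higher level at an unadjusted p under 0.05 was Polr1a, the largest subunit of RNA polymerase I, with 5.85 and 7.39 TPM after alternate-day fasting and 0.271 and 3.25 TPM in long-term fed HFSCs.

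Without overlap between the groups, 12 listed genes were lower and 6 higher after alternate-day fasting, where 21.0% of all tested genes were lower and 29.6% higher. After rescaling 13 were lower and 6 higher, against 21.5% and 29.1% of all tested genes. The median log2 difference was -0.13 over the listed genes and 0.09 over all tested genes, with role medians of -0.76 for the box C/D particle and 0.43 for RNA polymerase I. Marker levels also differed between these groups. Interfollicular markers summed to 1574 and 3311 TPM after alternate-day fasting and to 5317 and 5481 TPM in long-term fed HFSCs, with 0 of 8 called by limma. Krtdap made up most of these sums, with means of 1375 TPM after alternate-day fasting and 4164 TPM in long-term fed HFSCs. At an unadjusted p under 0.05 Krtdap, Ly6d and Krt10 were lower and Lrig1 was higher after alternate-day fasting, and Plet1 averaged 449 TPM after alternate-day fasting and 319 TPM in long-term fed HFSCs. Cycling genes summed to 440.2 and 471 TPM after alternate-day fasting and to 259 and 288 TPM in long-term fed HFSCs, with 7 of 8 higher, 0 called by limma and 5 at an unadjusted p under 0.05. Pcna made up most of the long-term fed sums and was the exception, with means of 202 TPM after alternate-day fasting and 213 TPM in long-term fed HFSCs. The part of these markers and cycling genes in the levels of the listed genes was not tested.

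Telogen HFSCs were compared with ad libitum HFSC libraries 2 and 3, which share their table, and 2 of 39 listed genes were higher and 0 lower, where 5.01% of all tested genes were called higher and 1.09% lower. At an unadjusted limma p under 0.05, 8 were higher and 0 lower, where 1900 of all 11618 tested genes differed. Myc had 665 and 368 TPM in telogen HFSCs and 74.2 and 41.3 TPM in the ad libitum HFSCs, without overlap. It was higher by 3.14 on the log2 scale (SE 0.350; limma adjusted p = 3.8e-07), and by 2.70 after rescaling (adjusted p = 8.9e-05), where it was the 1 listed gene called higher and 2.73% of all genes were called higher and 2.0% lower. The call was lost without either telogen library (adjusted p 0.110 and 0.0509). Gnl3 had 79.5 and 95.2 TPM in telogen HFSCs and 41.6 and 16.6 TPM in ad libitum HFSCs, a difference of 1.68 (SE 0.418; limma adjusted p = 0.0109). The Gnl3 call was lost after rescaling (1.26; adjusted p = 0.0827), without either telogen library (adjusted p 0.281 and 0.429) and without ad libitum library 3 (adjusted p = 0.533).

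The telogen libraries differed widely from each other in some listed genes, such as Nop56 (199.8 and 90.4 TPM), Wdr43 (38.7 and 14.1 TPM) and Utp4 (31.0 and 12.0 TPM). The median log2 difference from ad libitum HFSCs was 0.39 for the listed genes and 0.03 for all tested genes, and after rescaling -0.03 for the listed genes and -0.37 for all tested genes. The groups did not overlap in 19 listed genes that were higher and 1 that was lower, against 24.4% and 19.8% of all tested genes. After rescaling the counts were 7 higher and 6 lower, against 12.3% and 40.9% of all tested genes. The notes name different read trimmers for the telogen and the ad libitum libraries, so the trimmer and the group cannot be told apart. In that table the ad libitum columns have names starting with ana1, whose meaning is not given in the labels. The telogen and EpiSC comparisons share ad libitum libraries with the fasting comparisons.

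**Figure D5:**
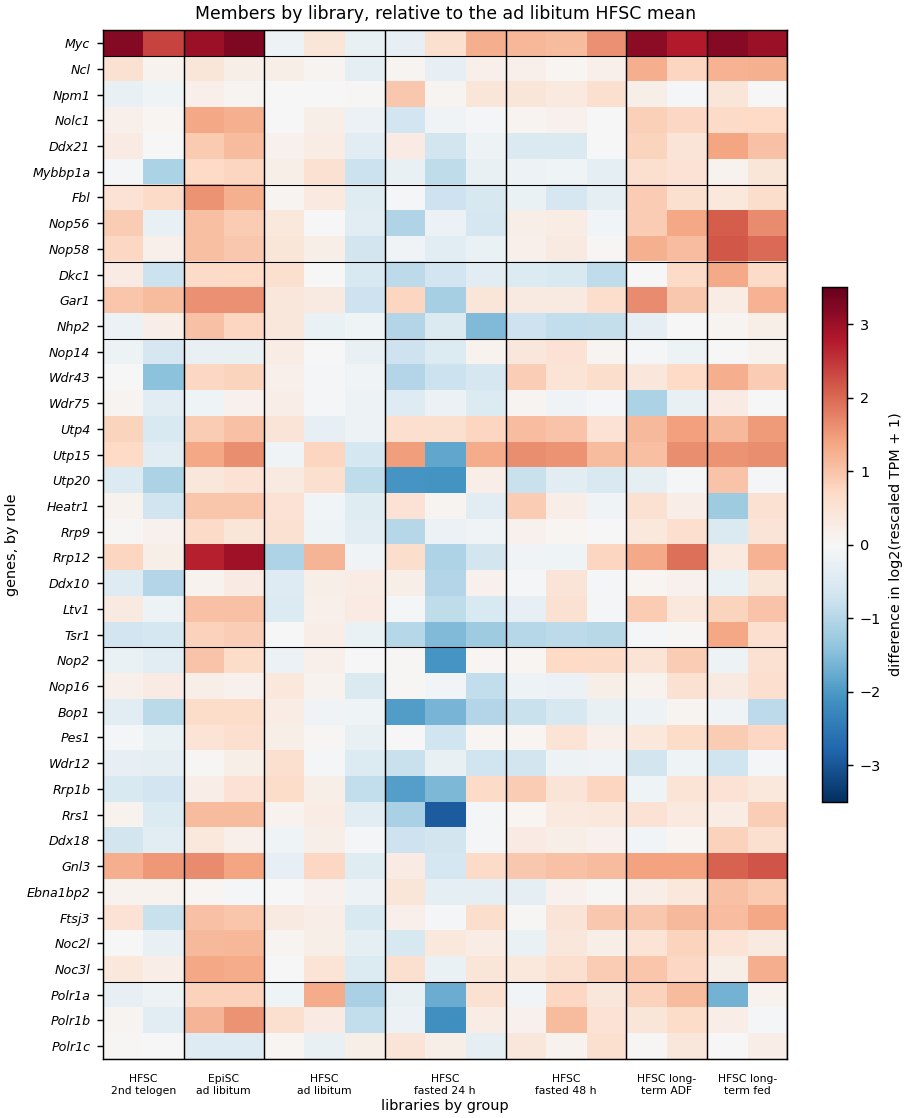
Level of each of the 40 genes in each of the 17 libraries, ordered by role and group, as log2(rescaled TPM + 1) minus the mean of the ad libitum HFSCs of the short experiment. Values are mostly positive in EpiSC and long-term libraries, and Myc is positive in all of these.

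Other genes of the pathway were read from lists of 14 MYC network genes, 19 genes of the RNA polymerase I machinery, 45 further small subunit factors and 48 further large subunit factors. In the 24 h comparison 0 of the 14 network genes and 0 of 110 tested genes in the other lists passed the limma test. At an unadjusted limma p under 0.05, 3 network genes differed, counted without regard to direction. Of the other lists 3 genes were higher and 6 lower at that threshold, where 1972 of all 11533 tested genes differed. In the 48 h comparison 5 of 14 network genes were called higher and 0 lower (3 after rescaling), led by Mxi1, a MAX partner that opposes MYC, which rose by 1.96 on the log2 scale (limma adjusted p = 0.00287). Max itself rose by 1.64 (limma adjusted p = 0.0045) and Mlxip, a glucose-responsive member of the network, by 1.52 (limma adjusted p = 0.00833). Of the other lists 16 of 110 genes were called higher and 0 lower in the 48 h comparison (5 of 111 after rescaling), against 13.3% of all tested genes called higher (5.93% after rescaling), so these shares were near or below the background. Over the 110 genes the median log2 difference was 0.61, against 0.42 over all tested genes. The called genes included 2 of 19 genes listed as polymerase I machinery, 6 of 45 small subunit factors and 8 of 46 large subunit factors. The 2 were Nop53 and Polr1d, and neither was called after rescaling (limma adjusted p = 0.0515 and 0.228). The large subunit maturation factor Sbds rose by 1.75 (limma adjusted p = 0.000454) and the export adaptor Nmd3 by 1.28.

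In EpiSCs 55 of 112 genes of these pathway lists were called higher and 0 lower than in ad libitum HFSCs (17 higher and 1 lower after rescaling), against 31.5% of all tested genes called higher (16.4% after rescaling), so that the rescaled share was near the background. Over the 112 genes the median log2 difference was 0.79, against 0.50 over all tested genes. The genes called on deposited TPM included 7 of 19 genes listed as polymerase I machinery, among them Tcof1, a cofactor of polymerase I transcription, higher by 1.90. Of the large subunit list Eif6, which keeps the large subunit from joining too early, was higher by 1.36 (limma adjusted p = 0.000197). In the MYC network 6 of 13 tested genes were called higher and 1 lower, and Mycl, a paralog of Myc, was higher by 3.73 (limma adjusted p = 0.000407) while Fbxw7, part of the ligase that degrades MYC, was higher by 2.60. The long-term comparison called 0 of 111 tested genes of the pathway lists, with a median of -0.20 (0.09 over all tested genes) and 3 higher and 12 lower at an unadjusted limma p under 0.05. The telogen comparison called 0 of 109, with a median of 0.16 (0.03 over all tested genes). At an unadjusted limma p under 0.05, 4 were higher and 2 lower. At that threshold 1720 of all 12162 tested genes differed in the long-term comparison and 1900 of 11618 in the telogen comparison. In the telogen comparison Mxi1 was the 1 network gene called, higher by 1.83 (limma adjusted p = 0.0114), and 0 were called after rescaling.

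By position, 40 of 40 genes matched the GENCODE M21 annotation of mm10. Exons on the opposite strand overlapped 16 of them, among them Bop1, Wdr43, Nhp2, Gnl3 and Nop56, and exons of small nucleolar RNAs or other genes on the same strand overlapped Ncl, Nop56, Nop58 and Gnl3. Whether strand was used in quantification was not given in the sources used here, so reads from such pairs cannot be told apart. Myc lies at chr15:61985391-61990374 on the plus strand and Bop1 at chr15:76452989-76477277 on the minus strand. Utp4 lies at chr8:106893636-106923088 and Wdr43 at chr17:71615895-71659031, both on the plus strand. Of the cell types that a skin sort could carry over, endothelial markers summed to at most 2.96 TPM in a library, muscle and adipocyte markers to at most 6.84 TPM, fibroblast markers to between 0.928 and 75.7 TPM, melanocyte markers to between 1.27 and 94.1 TPM and sebocyte markers to between 23.0 and 511 TPM. Immune markers summed to 54.8 and 95.1 TPM after alternate-day fasting and 115 and 165 TPM in long-term fed HFSCs. They summed to 2.41 to 39.9 TPM in the libraries of the other groups. Cd74 made up most of the long-term sums, with means of 68.1 TPM after alternate-day fasting and 131 TPM in long-term fed HFSCs. Cd207 had 2.67 and 0.296 TPM after alternate-day fasting and 6.84 and 3.43 TPM in long-term fed HFSCs. It was at 0 in the HFSC libraries of the short experiment. Lyz2 had 6.61 and 3.74 TPM after alternate-day fasting and 0.159 and 8.04 TPM in long-term fed HFSCs. The leukocyte marker Ptprc and Trdc were under 1 TPM in both long-term groups, and Cd3e was at 0. The part of these cell types in the results was not tested.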

How the data were processed

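The authors deposited TPM for 35674 gene symbols in 3 tables, and the submitters' processing notes list mm10, DESeq2 1.36.0 and Salmon 1.4.0 for all libraries, fastp 0.23.1 for those of the short experiment and Trimmomatic 0.39 for the others. Per the labels' protocols, RNA was amplified with a kit for full-length mRNA of single cells and tagged with a transposase. TPM holds no counts, so depth is unknown and no counting interval is given; 10422 to 12087 genes reached 1 TPM per library. Libraries were grouped by title, which for the alternate-day fasted mice goes against a treatment field reading ad libitum. The telogen columns carry no replicate number. Their table repeats ad libitum libraries 2 and 3, identical for 35674 of 35674 symbols within 1e-06 TPM and counted once.

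From the deposited TPM, log2(TPM + 1) was tested two-sided with limma 3.58.1 (R 4.3.3; moderated test with a mean-variance trend). Genes entered at a mean of at least 1 TPM over the libraries fitted, and p-values were adjusted over all genes tested (Benjamini-Hochberg, threshold 0.05). Fold changes on this scale understate changes of low genes. Counts of all tested genes at an unadjusted p under 0.05 hold both directions. Noc3l did not reach the filter in the deposited short and telogen fits. The 9 short-experiment HFSC libraries shared 1 fit; EpiSCs, long-term and telogen HFSCs were fitted with 5, 4 and 4 libraries. Ratios, sums, rescaling without 13 mt- symbols, motifs and plots used Python 3.11.15, pandas 2.3.3, numpy 2.4.6 and matplotlib 3.10.9. The fit code was also run on simulated data with the same noise for every gene, a setting that differs from these data. That run does not bear on the calls given here. Alternatives were a pseudocount of 0.1, no filter, rescaled TPM, median-ratio scaling, a replicate block and leaving out each library. Members and lists were chosen with earlier results of these data known. Library values are given for Myc and for up to 8 called genes per comparison by smallest adjusted p, else for the 3 with the smallest unadjusted p, and up to 3 called genes per other list could be named; other members named were chosen after their values were seen.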

Additional observations from a re-analysis of the deposited data

How the results depend on the processing

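Counts of listed genes called moved with the scaling and the libraries used. For 48 h against ad libitum, 5 were higher, against 3 with no filter, 1 rescaled, 1 with median-ratio scaling, 1 with a replicate block on rescaled TPM, and 1 to 6 without 1 library. For 24 h against ad libitum, 1 was lower, against 0 with no filter, 2 rescaled, 2 with a replicate block on rescaled TPM, and 0 to 2 without 1 library (0 without any of the ad libitum libraries). For 48 h against 24 h, 1 was higher, against 0 with a pseudocount of 0.1, no filter, rescaling, median-ratio scaling or a replicate block on rescaled TPM, and 0 to 5 without 1 library (5 without 24 h library 3). For EpiSCs, 29 were higher, against 17 rescaled, 19 with median-ratio scaling, and 1 to 32 without 1 library (1 and 5 without EpiSC libraries 1 and 2). For telogen, 2 were higher, against 0 with no filter, 1 rescaled, 3 with median-ratio scaling, and 0 to 3 without 1 library (0 without either telogen library). For alternate-day fasting 0 were lower, against 1 with a replicate block (Nop58, adjusted p = 0.0487), which called 284 genes in all against 1 without it. With the block alone, 48 h called 4 higher, EpiSCs 27 and the other short comparisons 1 each; same-numbered libraries did not deviate together (correlations of deviations -0.132 to 0.0505 over the pairs), so the numbers are not read as pairs, and the telogen libraries carry none. The EpiSC numbers are those of the titles, 1 and 2, while the descriptions give 2 and 3, so the EpiSC block rests on numbers in conflict. Over all genes the 24 h comparison called 354, against 61 with no filter and 567 rescaled; 48 h called 1765, against 918 and 1206; EpiSCs called 4782, against 1253 and 1367 without EpiSC libraries 1 and 2. With no filter Myc in telogen was not called (adjusted p = 0.165). Of the 128 alternative values for single genes that left out no library, 100 stayed on their side of the threshold, 25 lost and 3 gained a call, and no direction was reversed. Causes were not tested. Leaving 1 library in a group assumes that it varies like the others, and the unknown depth limits genes of a few TPM.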
